A study of Mus musculus with 11 samples.

Results

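The tsA58 line is 2xSCS70, a clone grown from the gastric muscle coat of H-2Kb-tsA58 mice and titled by its submitters as a conditionally immortalized stem cell of the interstitial cells of Cajal (ICC). It was cultured in neural stem cell proliferation medium at 39.5 °C with no interferon-gamma. The line was set against stomach muscle wall dissected from mice of the same strain, so that the transgene was present on both sides. Each group has 3 arrays, and the series has 11 in all; the other 5 are the C57BL/6J line 2xSCS2F10 (3 arrays, the same medium with 5% chick embryo extract, 37 °C) and C57BL/6J stomach muscle (2 arrays). The labels give no ages, the line is a single clone, and the large T transcript was not analysed here. RNA, about 50 ng a sample, went through 2 rounds of amplification before hybridization to a mouse expression array. Each gene is represented by the probe set, named by a single symbol, with the highest mean over the 11 arrays, which gives 18193 genes; 13285 of them stood above the median of all probe sets on at least 2 arrays and were tested. Values below are log2 RMA values, listed in the order of replicates 1, 2 and 3, and a change is the line mean minus the tissue mean, with the moderated standard error (SE) of limma. A gene is said to rise or fall where its Benjamini-Hochberg adjusted p from limma was under 0.05 and its change at least 2-fold. The labels call the arrays biological replicates without naming separate cultures or animals, so p-values measure only the spread between these arrays, part of which may be technical.

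ICC are the pacemaker cells of the gut wall: they generate the slow waves that set the rhythm of the smooth muscle and pass signals from enteric nerves to it. Their survival rests on the receptor Kit and its ligand, and a small pool of Kit-low cells that carry Cd44, Cd34, Igf1r and Insr is held to be their progenitor. The transgene H-2Kb-tsA58 places a heat-sensitive SV40 large T antigen under the interferon-inducible promoter of the class I gene H2-K1. The antigen is stable at low temperature and breaks down when cells are warmed, and it binds p53 and the retinoblastoma protein while it is present.

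Arrays of a group resembled each other, with Pearson correlations over all probe sets except controls of 0.956 to 0.988 in the line and 0.965 to 0.977 in tissue. Line replicate 3 and tissue replicates 1 and 2 nevertheless stood apart in parts of the genome. On line replicate 3, 143 genes lay at least 2 log2 units above both other line arrays and 57 lay as far below them, against 7 and 6 for replicate 1 and 11 and 5 for replicate 2. Tissue replicate 1 exceeded both of its partners by that gap in 92 genes and tissue replicate 2 in 125, against 6 for replicate 3. The genes concerned, given below group by group, include mesothelial and matrix genes on line replicate 3, mitotic and collagen genes on tissue replicate 1, and gastric gland, pancreatic and immune genes on tissue replicate 2. The 3' to 5' signal ratio of the actin control probe sets was 0.51, 0.85 and 0.05 (log2) on the line arrays and 0.47, 0.43 and 0.41 on the tissue arrays. Its part in the results was not tested beyond a fit with this ratio as a covariate.

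The line differed from its tissue of origin in 4214 of 13285 genes, 31.7% of those tested. Of these, 1698 rose (12.8% of tested genes) and 2516 fell (18.9%), and the largest changes were losses: 78 genes fell at least 64-fold, whereas 5 rose as much. Tested against a 2-fold change rather than against no change (limma's treat), 518 genes rose and 1290 fell. The split depends on the scale. With each array centred on its hybridization controls, which are spiked in and read 8.24, 8.26 and 7.93 on the line arrays and 7.52, 9.04 and 9.66 on the tissue arrays, the median of all tested genes moved from 0 to 0.60, and 1821 genes rose while 1151 fell, 61.3% risen against 40.3%. That scale is called control-centred below. Changes are given on the deposited scale, where that median is 0 and the middle 50% of genes lie between -0.73 and 0.54. The control readings differ within a group, so centring on them adds their spread to every gene. Among named genes whose call or sign differed there, adjusted p from limma went with the size of the change alone. It was 0.00186 for Cela3b at -2.31, 0.0618 for P2ry1 at -1.52 and 0.219 for Spry1 at -1.06. Counts on the control-centred scale thus carry added spread besides the shift, and p-values there do not measure the spread of a single gene. No gene changed direction of call under any alternative fit that was run. The deposited values carry no detection calls, so where a group lies under the array medians the size of a change rests on the low end of the scale.

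**Figure D1:**
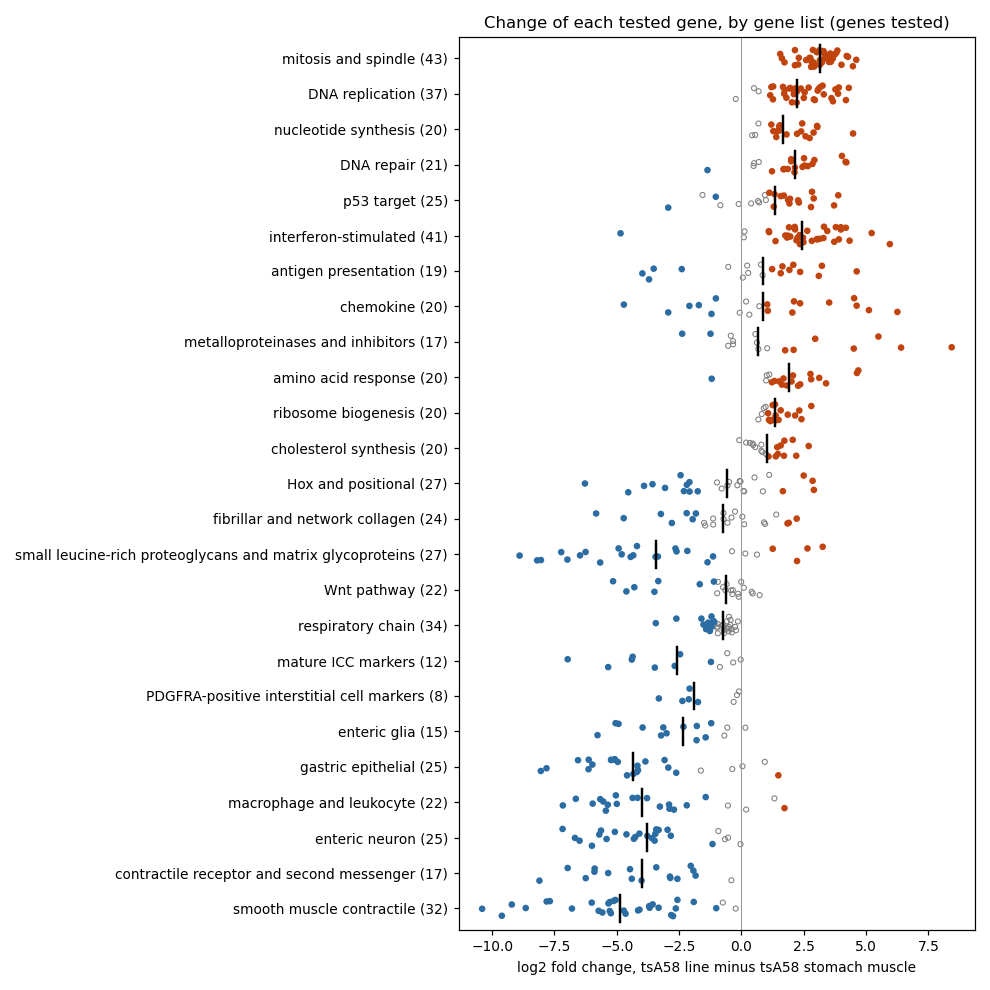
The log2 fold change (x axis, line minus tissue) of every tested member of 25 gene lists (y axis, number tested in brackets). Red points rose, blue points fell, open grey points did not pass, and the black bar is the list median; cell division and interferon lists lie to the right and muscle, neuron and epithelial lists to the left.

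Mmp13, the collagenase that cleaves fibrillar collagen, was the tested gene with the largest fitted rise. Mmp13 read 11.32, 11.07 and 10.89 in the line and 2.32, 3.07 and 2.60 in tissue. All line arrays lay far above all tissue arrays, a rise of 8.43 ± 0.23 (adjusted p = 1.24e-09); the tissue values were under the array medians, so its size and rank rest on the low end of the scale. Mmp10, stromelysin 2, read 12.09, 10.01 and 9.87 in the line and 4.27, 4.26 and 4.23 in tissue, and Mmp3, stromelysin 1, read 10.43, 10.36 and 10.39 in the line and 3.52, 6.01 and 5.16 in tissue. Line and tissue arrays of both genes were widely separated, with rises of 6.41 ± 0.50 and 5.49 ± 0.49; Mmp3 was level across the line arrays and uneven in tissue. Mmp8, the neutrophil collagenase, rose by 2.96 ± 0.21, and Timp1, which inhibits these enzymes, by 4.51 ± 0.46 on values of 11.16, 10.53 and 12.40 in the line and 7.41, 7.18 and 5.99 in tissue. Of 17 tested metalloproteinases and inhibitors, 7 rose, 2 fell and 8 did not pass, with a median of 0.68. The inhibitor genes Timp2, at 11.24, 10.83 and 12.47 in the line and 11.77, 11.92 and 11.86 in tissue, and Timp3, at 10.94, 10.54 and 11.61 in the line and 10.31, 10.27 and 10.48 in tissue, were among those that did not. Timp2 arrays overlapped, and the line arrays of Timp3 lay above tissue by under 2-fold on the probe set used. All 3 other Timp3 probe sets were called higher, by 1.67, 1.17 and 1.55, and the mean of its probe sets rose by 1.27 (adjusted p = 0.0104). Without line replicate 3 the list median was 0.39.

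Mmp13, Mmp3 and Mmp10 lie in a cluster on chromosome 9, and their proximal promoters are shown because the activator protein 1 (AP-1) element, bound by Fos and Jun proteins, stands shortly before the start of all 3. The element was searched as TGAGTCA on both strands in the 250 bases before each RefSeq start (GRCm38.p6) and is in capitals; in Mmp13 it lies on the minus strand. It begins 35, 46 and 63 bases before the starts of Mmp13 (chr9:7272434-7272513, plus strand), Mmp3 (chr9:7445742-7445821, plus strand) and Mmp10 (chr9:7502242-7502341, plus strand). Of 11 list members with a promoter on record 4 hold it, or 36.4%, against 5.16% of 27025 promoters, and a match of letters is a description, not a measured site.
Mmp13: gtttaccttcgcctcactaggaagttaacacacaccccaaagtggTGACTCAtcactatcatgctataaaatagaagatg
Mmp3: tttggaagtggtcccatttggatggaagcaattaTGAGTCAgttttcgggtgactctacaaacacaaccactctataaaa
Mmp10: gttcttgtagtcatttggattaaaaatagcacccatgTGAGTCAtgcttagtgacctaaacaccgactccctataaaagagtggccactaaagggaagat
Among the genes for AP-1 subunits and other immediate early genes, 22 tested, 5 rose and 3 fell, where 12.8% and 18.9% of all tested genes did. Fosl1, a Fos-family subunit, rose from 4.19, 4.51 and 4.31 to 8.54, 7.60 and 9.37, a change of 4.16 ± 0.38. Fos itself read 7.59, 7.06 and 7.41 in the line and 10.15, 7.95 and 10.75 in tissue and fell by 2.27 ± 0.60. The line arrays of Fos were alike, whereas tissue replicate 2 stood below its partners.

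Genes whose products answer growth factor signalling through Ras and MAP kinase rose in part. Of 13 such genes 7 rose and 1 fell. Dusp4, a phosphatase that switches off ERK, read 9.06, 7.97 and 8.86 in the line and 4.42, 4.53 and 4.49 in tissue and rose by 4.15 ± 0.30, and Dusp6, of the same family, read 11.07, 9.36 and 10.34 in the line and 8.61, 7.86 and 7.28 in tissue and rose by 2.34 ± 0.47. The groups did not overlap for either gene, and line replicate 2 was the lowest line array in both. Spry1, an inhibitor of receptor signalling, fell by 1.66, a call lost on the control-centred scale. The epidermal growth factor receptor ligand Hbegf read 9.29, 7.75 and 8.01 in the line and 4.91, 4.91 and 4.81 in tissue, a rise of 3.47 ± 0.37, and the ephrin receptor Epha2 rose by 3.35 ± 0.25. Over all 34 receptor tyrosine kinases and ligands tested, 6 rose, 13 fell and 15 did not pass; the median was -0.50, and 0.10 on the control-centred scale.

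Most contractile genes of smooth muscle fell. Of 32 tested, 30 fell, none rose and the list median was -4.89; the line arrays were below every tissue array in 30, as in 28.2% of all genes tested. The exceptions were Vcl and Actn1, which tie actin filaments to adhesions and read 11.13, 10.24 and 11.27 in the line and 11.44, 10.73 and 11.15 in tissue for Vcl and 10.70, 9.49 and 10.98 in the line and 11.21, 10.96 and 11.24 in tissue for Actn1. Without line replicate 3 Actn1 fell by 1.04 (adjusted p = 0.0314). Smooth muscle myosin heavy chain, Myh11, read 3.81, 3.62 and 3.76 in the line and 13.04, 12.54 and 13.25 in tissue, gamma-smooth muscle actin, Actg2, 3.37, 3.22 and 3.53 in the line and 13.02, 12.76 and 13.18 in tissue, and the phospholamban gene Pln, which restrains the calcium pump, 4.14, 4.13 and 4.29 in the line and 12.07, 11.75 and 11.80 in tissue. Every line value of these genes lay under the median of all probe sets of its array (4.66 to 4.77), and every tissue value far above it. Myh11 fell by 9.21 ± 0.19, Actg2 by 9.61 and Pln by 7.69 (adjusted p 2.85e-10, 2.85e-10 and 4.18e-10). In a bulk sample fewer cells of a type and less RNA per cell cannot be told apart.

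The signal left in the line differed between contractile genes and between probe sets. Acta2, smooth muscle alpha-actin, read 10.99, 9.72 and 12.13 in the line and 13.62, 13.66 and 13.78 in tissue, a fall of 2.74 ± 0.46 with line arrays well above the array medians. That level rests on 1 probe set: on both others of Acta2, which had lower means over the arrays, the line averaged 3.49 and 3.58 and the changes were -6.58 and -2.30, both called. Tagln, an actin-binding protein, read 7.80, 5.90 and 10.32 in the line and 13.58, 13.49 and 13.69 in tissue, with line arrays spread widely and highest on replicate 3, and it fell by 5.58 ± 0.81. Among smooth muscle transcription factors, 15 tested, 5 fell and 2 rose; on the control-centred scale 3 fell, Srf no longer among them, and the median moved from -0.50 to 0.10. Myocd, the coactivator that drives the contractile programme with serum response factor, read 3.19, 3.29 and 3.29 in the line and 7.17, 5.64 and 7.63 in tissue, and Srf itself read 7.61, 7.30 and 7.45 in the line and 9.44, 8.95 and 9.48 in tissue. Myocd fell by 3.55 and Srf by 1.84, and neither overlapped between groups. Mef2c, a muscle factor that Myocd cooperates with, fell by 4.49. Tbx18, a mesenchymal factor, went the other way: it read 6.41, 6.70 and 6.42 in the line and 3.22, 3.33 and 3.59 in tissue and rose by 3.13 ± 0.23. The CArG box, the element bound by serum response factor, was found in 6 of 28 contractile gene promoters with a window (21.4%), against 1.62% of all promoters.

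Receptors and signal enzymes through which nerves and hormones reach the muscle mostly fell, 16 of 17 tested (13 on the control-centred scale), with a median of -4.01. The subunits of soluble guanylate cyclase, the nitric oxide receptor, read 2.65, 2.77 and 2.77 in the line and 9.52, 9.87 and 9.70 in tissue for Gucy1a1 and 4.05, 3.995 and 4.51 in the line and 9.45, 9.64 and 9.50 in tissue for Gucy1b1. The groups stood far apart on every array, and the subunits fell by 6.97 and 5.35. Pde5a, which breaks down the cyclic GMP that they make, fell by 5.89 ± 0.29, and Prkg1, the kinase that cyclic GMP activates, by 4.40 ± 0.37. Rgs5, a brake on G protein signalling found in pericytes and muscle, read 3.12, 2.70 and 5.76 in the line and 11.39, 12.19 and 12.31 in tissue and fell by 8.10; line replicate 3 was above its partners. Of 20 potassium channel genes 13 fell (8 on the control-centred scale) and none rose, led by Kcnd3, which carries a transient outward current, at 3.16, 3.05 and 3.27 in the line and 9.14, 8.63 and 9.13 in tissue. Of 24 calcium handling genes 10 fell and none rose. Cacna2d1, a subunit of voltage-gated calcium channels, read 3.66, 3.64 and 3.11 in the line and 10.08, 9.18 and 9.66 in tissue and fell by 6.17; the pump gene Atp2a2, at 11.13, 11.52 and 11.28 in the line and 10.65, 10.76 and 10.86 in tissue, lay higher in the line by under 2-fold on the probe set used. Of the 4 other Atp2a2 probe sets 2 were called lower, with changes of -1.80 and -1.31, and the mean of all its probe sets changed by -0.42, so no direction is given for this gene.

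Most markers of mature ICC fell. Of 12 tested, 8 fell and none rose, with a median of -2.57. The falls include Gucy1a1, Gucy1b1 and Prkg1, described above with the signal enzymes of muscle. They also include Cacna1h, which the calcium handling list holds too, so these counts are not separate from those above. Kit read 3.16, 3.56 and 3.79 in the line and 8.61, 7.34 and 7.66 in tissue. Every line array was below the median of all its probe sets and every tissue array was well above it, a fall of 4.36 ± 0.33 (adjusted p = 2.43e-06). Ano1, the calcium-activated chloride channel that makes the slow wave, read 7.33, 6.29 and 7.82 in the line and 9.69, 9.68 and 10.10 in tissue, so the line kept an intermediate signal. Ano1 fell by 2.68 ± 0.33. Gja1, the gap junction protein connexin 43, read 10.42, 10.10 and 10.63 in the line and 10.43, 10.08 and 10.73 in tissue, with fully overlapping arrays.

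Among the markers of the Kit-low progenitor named above, Cd44 rose, and Cd34, Igf1r and Insr did not pass. The list tested for this cell also holds Kit, Pdgfra and the ligand genes Igf1 and Kitl, which all fell. In the whole list of 8, 1 rose, 4 fell and 3 did not pass. Cd44, the hyaluronan receptor, read 11.74, 10.99 and 10.67 in the line and 8.22, 8.70 and 8.54 in tissue and rose by 2.65 ± 0.26 (adjusted p = 1.94e-05), with all line arrays above all tissue arrays. Cd34, a surface sialomucin, read 11.12, 9.79 and 10.81 in the line and 9.78, 10.11 and 9.55 in tissue, and the change of 0.76 ± 0.32 did not pass (adjusted p = 0.0705); line replicate 2 lay inside the tissue range. Without that array Cd34 rose by 1.15 (adjusted p = 0.00384), and with array quality weights by 1.17 (adjusted p = 0.0066). Insr and Igf1r, the receptors for insulin and for insulin-like growth factor 1, read 7.63, 8.24 and 6.61 in the line and 7.44, 7.19 and 8.11 in tissue and 9.40, 9.12 and 8.61 in the line and 8.86, 7.94 and 9.25 in tissue, with overlapping arrays in each case. The ligand gene Igf1 read 8.60, 5.25 and 7.05 in the line and 10.91, 10.14 and 9.64 in tissue and Kitl, the ligand of Kit, 8.47, 7.99 and 8.57 in the line and 10.52, 10.40 and 10.88 in tissue. Both ligands fell, Igf1 by 3.26 ± 0.70 and Kitl by 2.26 ± 0.23, and the line arrays of Igf1 were the more uneven.

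PDGFRA-positive interstitial cells, the fibroblast-like partners of ICC, are marked by Pdgfra, which read 5.34, 5.80 and 8.10 in the line and 9.98, 9.65 and 9.55 in tissue. Line replicates 1 and 2 were far below tissue and replicate 3 in between, and Pdgfra fell by 3.31 ± 0.55 (adjusted p = 0.000681). Of 8 tested markers of these cells 5 fell (2 on the control-centred scale) and none rose. P2ry1, the purine receptor through which they relax the muscle, read 3.12, 3.06 and 3.09 in the line and 5.10, 5.29 and 5.21 in tissue and fell by 2.11, a call lost on the control-centred scale. The small-conductance potassium channel Kcnn3, which carries that response, read 4.35, 4.54 and 4.63 in the line and 4.59, 4.63 and 4.59 in tissue and did not pass.

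**Figure D2:**
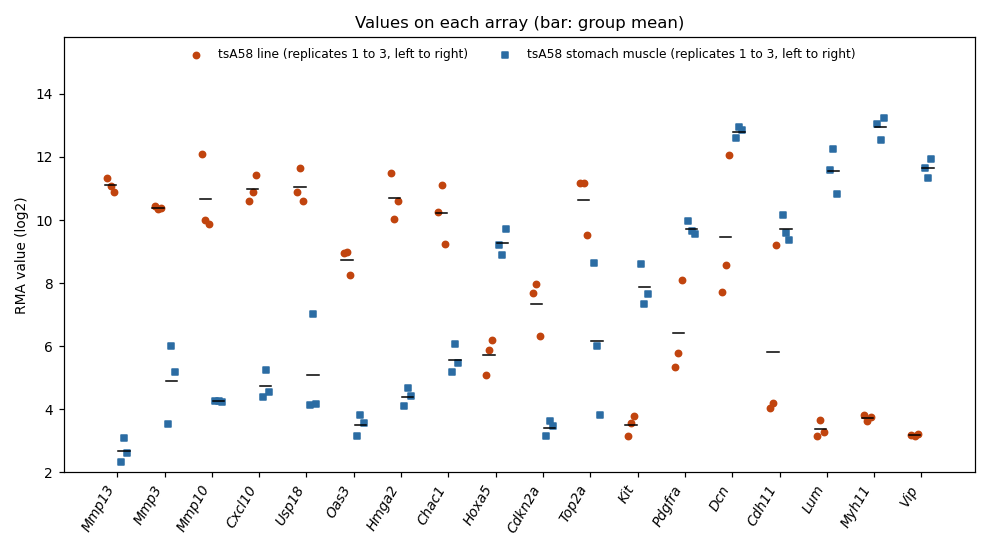
RMA log2 values (y axis) of 18 genes on each of the 3 line arrays (red circles) and 3 tissue arrays (blue squares), drawn from replicate 1 to 3 left to right, with group means as bars. Dcn, Cdh11 and Pdgfra show line replicate 3 above its partners, and Usp18 and Top2a show an uneven tissue group.

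Most neuronal and glial genes of the enteric plexus, which is part of the stomach wall, fell. Of 25 enteric neuron genes 21 fell, and of 14 transmitter genes 12 fell, with medians of -3.77 and -3.40; none rose in either list. Ret, the receptor that enteric neurons need to form, read 3.05, 3.11 and 2.73 in the line and 9.58, 9.01 and 9.78 in tissue, and Snap25, a part of the synaptic release machinery, 2.76, 2.84 and 2.89 in the line and 10.44, 9.37 and 10.21 in tissue. The separation was complete for both, with falls of 6.49 and 7.18. The neuropeptides Tac1 (substance P) and Grp (gastrin-releasing peptide) fell by 7.59 and 7.87, and Npy by 5.12. Of 15 enteric glia genes 12 fell and none rose; Fabp7, a fatty acid binding protein of glia and neural progenitors, read 3.07, 3.05 and 2.98 in the line and 9.87, 8.81 and 7.74 in tissue and Cdh19, a cadherin of the crest lineage, 2.92, 3.04 and 3.21 in the line and 8.05, 7.45 and 8.46 in tissue. Sox2, a transcription factor of neural stem cells and glia, read 2.56, 2.72 and 2.50 in the line and 6.16, 5.87 and 5.42 in tissue and fell by 3.22. Of 16 neural stem and crest genes 5 fell and 1 rose, with a median of -0.11 (0.49 on the control-centred scale). The gene that rose was Snai2, the Slug repressor of epithelial genes, which read 10.82, 11.21 and 8.89 in the line and 6.70, 5.36 and 5.66 in tissue. All line arrays of Snai2 exceeded tissue, replicate 3 least, and it rose by 4.40 ± 0.56.

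Most markers of the other cells of the wall fell as well, and their values differed among the tissue arrays. Of 22 macrophage and leukocyte genes 18 fell and 1 rose, with C1qa, a complement subunit of resident macrophages, at 3.93, 3.96 and 3.68 in the line and 8.68, 10.33 and 9.56 in tissue. Tissue replicate 2 was the highest tissue array in 20 of the 22. Endothelial genes fell in 13 of 18 (8 on the control-centred scale), with Pecam1, the adhesion molecule CD31, at 3.76, 3.50 and 3.85 in the line and 7.46, 7.09 and 6.19 in tissue, and pericyte genes in 7 of 9. Of 10 adipocyte genes 9 fell; Adipoq, the fat cell hormone adiponectin, read 3.30, 3.04 and 3.28 in the line and 7.75, 12.20 and 11.33 in tissue, and tissue replicate 1 was the lowest tissue array in all 10.

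Transcripts of gastric epithelium and exocrine pancreas were present in the tissue samples. Of 25 gastric epithelial genes 20 fell and 1 rose, with a median of -4.34. Gkn1, gastrokine of the surface mucous cells, read 5.12, 4.84 and 5.09 in the line and 12.31, 13.76 and 12.44 in tissue, and Chia1, the stomach chitinase of gland cells, 3.18, 3.26 and 3.33 in the line and 4.56, 13.10 and 10.49 in tissue. Gkn1 was high on all tissue arrays; Chia1 was high on replicate 2, lower on 3 and near the bottom of the range on 1, and its fall was 6.13 ± 1.61 (adjusted p = 0.00947). The mean of the gastric list was 8.41, 10.55 and 8.52 on the tissue arrays and 5.16, 4.83 and 5.52 in the line. For the 10 tested exocrine pancreas genes it was 5.00, 10.46 and 5.70 in tissue, and 3 of the 10 fell. The elastase gene Cela3b read 4.30, 4.19 and 4.61 in the line and 4.41, 12.55 and 4.85 in tissue, high on tissue replicate 2 alone, and did not pass, other than on the control-centred scale (-2.31, adjusted p = 0.00186), where 5 pancreatic genes fell. That p does not measure the wide spread of its tissue arrays. Without tissue replicate 2, 19 gastric and 3 pancreatic genes fell, and the pancreatic median moved from -2.11 to -0.27. The contractile genes of the labelled tissue were high on all of its arrays, and these gland transcripts on at least 1.

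**Figure D3:**
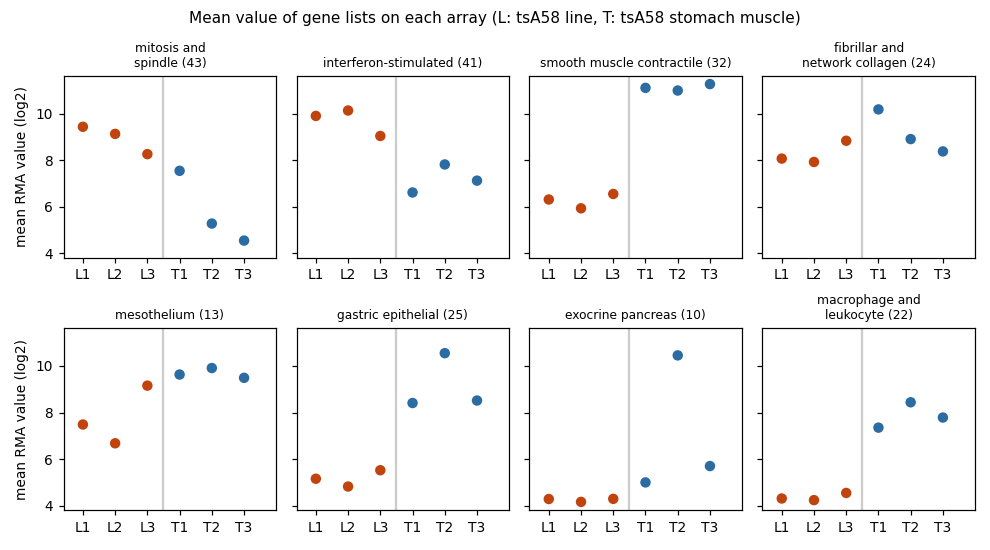
Mean log2 value of the tested members of 8 gene lists (number in brackets) on the 3 line arrays (L1 to L3, red) and the 3 tissue arrays (T1 to T3, blue). L3 stands high for mesothelium, T1 for mitosis and collagens, and T2 for gastric epithelium and exocrine pancreas.

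The extracellular matrix changed member by member. Small leucine-rich proteoglycans and matrix glycoproteins mostly fell, 20 of 27 with 4 risen and a median of -3.44. Lumican, Lum, which spaces collagen fibrils, read 3.14, 3.66 and 3.27 in the line and 11.60, 12.24 and 10.82 in tissue, asporin, Aspn, a relative, 2.68, 2.74 and 2.51 in the line and 10.73, 10.82 and 10.50 in tissue, and the adhesion regulator Sparcl1 3.50, 3.32 and 3.63 in the line and 12.24, 12.38 and 12.53 in tissue. All 3 were under the array medians on every line array, with falls of 8.20, 8.04 and 8.90. Decorin, Dcn, by contrast read 7.71, 8.58 and 12.07 in the line and 12.60, 12.96 and 12.86 in tissue: line replicate 3 nearly reached tissue and the others did not. Dcn fell by 3.35 ± 0.84 (adjusted p = 0.00746), and fell by 4.66 without line replicate 3. Fn1, fibronectin, read 12.08, 12.31 and 12.48 in the line and 11.04, 10.48 and 11.59 in tissue, with no overlap, and rose by 1.25 ± 0.26, or by 0.98, under 2-fold, without tissue replicate 2.

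Of 24 fibrillar and network collagen genes and their processing enzymes 3 rose, 7 fell and 14 did not pass, where 12.8% of all tested genes rose and 18.9% fell. The list median was -0.72 (-0.12 on the control-centred scale). Col14a1 and Col6a3, which coat or link fibrils, read 3.65, 3.66 and 3.18 in the line and 10.10, 9.69 and 8.18 in tissue and 5.56, 5.38 and 4.82 in the line and 11.57, 9.72 and 8.64 in tissue, with line arrays low throughout and tissue replicate 1 the highest. Col14a1 fell by 5.83 and Col6a3 by 4.72. Col1a2, a chain of type I collagen, read 9.18, 9.31 and 12.51 in the line and 12.78, 11.47 and 11.12 in tissue: line replicates 1 and 2 were under every tissue array, replicate 3 was among them, and the gene did not pass (-1.45, adjusted p = 0.136). Without line replicate 3 it fell by 2.54 (adjusted p = 0.000556), and with array quality weights the change was -2.25. Col5a2, of type V collagen, rose by 1.85 ± 0.47, and P4ha1, the hydroxylase that stabilizes the triple helix, by 2.22 ± 0.29. Tissue replicate 1 was the highest tissue array in 22 of the 24 genes. Without it 5 rose and 6 fell, and without line replicate 3, 2 rose and 13 fell.

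Of 25 integrin and laminin genes 10 fell and 3 rose, where 18.9% and 12.8% of all tested genes did. On the control-centred scale 6 fell, and the median moved from -0.38 to 0.22. Itga8, an integrin subunit of mesenchyme, read 2.62, 2.76 and 2.90 in the line and 8.69, 7.73 and 7.49 in tissue and Itga1, a collagen receptor subunit of smooth muscle, 3.46, 3.60 and 3.97 in the line and 9.45, 9.15 and 9.78 in tissue. Both were separated on all arrays, and fell by 5.21 and 5.78. Tcf21, a transcription factor of visceral mesenchyme, was at 2.99, 2.77 and 2.99 in the line and 9.80, 9.54 and 9.28 in tissue and fell by 6.63.

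Line replicate 3 read higher than its partners in some mesenchymal and mesothelial genes. The adhesion molecule Cdh11, cadherin 11, read 4.03, 4.18 and 9.21 in the line and 10.16, 9.59 and 9.37 in tissue; replicate 3 was close to tissue, replicates 1 and 2 were under the array medians, and the fall was 3.90 ± 1.07 (adjusted p = 0.0122). With line replicate 3 left out it fell by 5.60, and with line replicate 1 left out the change was -3.01 and missed the threshold (adjusted p = 0.0512). Lama4, a laminin chain of vessel and muscle basement membranes, read 4.34, 3.90 and 8.47 in the line and 10.08, 8.77 and 9.06 in tissue and fell by 3.74 ± 0.95 with that array and by 5.19 without it; with the mean of its probe sets the change was -2.17 and missed the threshold (adjusted p = 0.0547). The 13 tested mesothelium genes averaged 7.49, 6.68 and 9.16 on the line arrays and 9.63, 9.91 and 9.49 in tissue, and line replicate 3 was the highest line array in 12 of them, by at least 2 units in 5. Upk3b, a uroplakin of mesothelium, read 8.80, 7.85 and 12.43 in the line and 11.002, 10.69 and 10.82 in tissue and did not pass (-1.14, adjusted p = 0.31). Without line replicate 3 it fell by 2.51 (adjusted p = 4.44e-05), and with array quality weights the change was -1.99. Muc16, the mesothelial mucin, read 3.93, 3.71 and 6.77 in the line and 8.39, 8.35 and 8.30 in tissue and fell by 3.55. In all, 7 mesothelium genes fell and 1 rose, and without line replicate 3, 9 fell and none rose. The keratin genes Krt8, Krt18 and Krt19 are members of both this list and the gastric epithelial list. Serpinb2, an inhibitor of plasminogen activators, was the gene with the widest gap on that array and was named after its values were seen: it read 3.51, 3.70 and 10.42 in the line and 2.41, 5.90 and 3.27 in tissue and did not pass, other than on the control-centred scale (2.61, adjusted p = 0.000314). That p does not measure the wide spread of its line arrays. Of the 143 genes at least 2 units above both partners on line replicate 3, 48 fell, 10 rose and 85 did not pass against tissue. What sets the array apart was not tested.

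**Figure D4:**
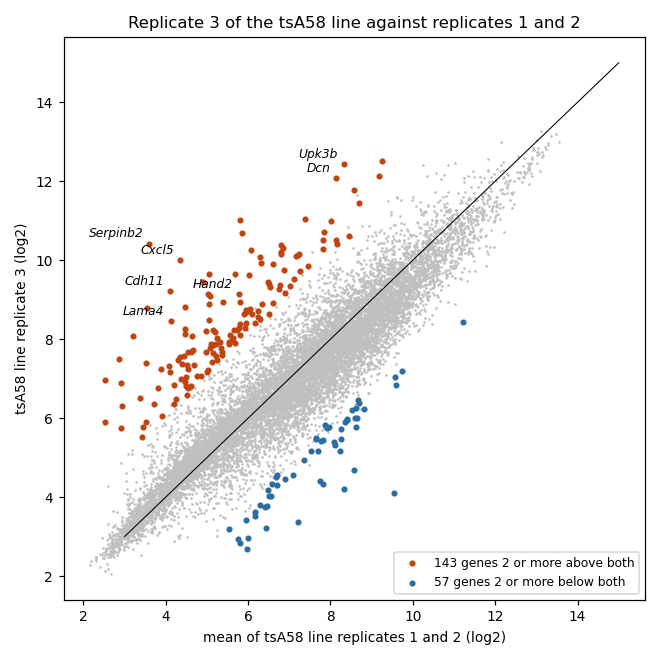
Value of each of the 13285 tested genes on line replicate 3 (y axis, log2) against the mean of line replicates 1 and 2 (x axis, log2), with the line of equality. The 143 genes at least 2 units above both partners are red, the 57 as far below are blue, and 7 genes with wide gaps are named.

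Cell division genes rose as a body. All 43 mitosis and spindle genes tested rose, as did 34 of 37 DNA replication genes, 17 of 20 nucleotide synthesis genes and 17 of 21 DNA repair genes, with medians of 3.15, 2.23, 1.68 and 2.13. In tissue these genes were uneven. Top2a, which untangles replicated chromosomes, read 11.17, 11.16 and 9.53 in the line and 8.64, 5.99 and 3.82 in tissue, and Bub1, a checkpoint kinase, 9.96, 10.19 and 8.37 in the line and 7.31, 3.97 and 3.42 in tissue. Line replicate 3 was the lowest line array and tissue replicate 1 the highest tissue array for both, and the groups did not overlap. Top2a rose by 4.47 ± 0.96 and Bub1 by 4.61 ± 0.89. The same order held for most of the list: tissue replicate 1 was highest in all 43 genes and line replicate 3 lowest in 42. Mean values of the list were 9.43, 9.13 and 8.26 in the line and 7.54, 5.28 and 4.55 in tissue. Leaving out tissue replicate 1 raised the median to 4.05 with all 43 risen, leaving out tissue replicate 2 left 39 risen, and leaving out line replicate 3 left 43.

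Most replication genes rose. Cdc6, which loads the helicase, read 8.74, 8.64 and 6.96 in the line and 4.63, 3.81 and 2.98 in tissue, and Mcm3, a helicase subunit, 10.56, 10.70 and 9.50 in the line and 7.19, 6.34 and 5.51 in tissue. Both were clear of tissue on every line array and rose by 4.31 ± 0.58 and 3.91 ± 0.54. Hells, a chromatin remodeller that DNA methylation needs, read 9.72, 9.82 and 8.92 in the line and 5.53, 3.86 and 3.48 in tissue and rose by 5.19 ± 0.49. Brca1, of homologous recombination, rose by 4.21 ± 0.65 on values of 8.84, 9.12 and 7.08 in the line and 5.32, 3.57 and 3.51 in tissue, and the nucleotide enzyme Rrm2 by 4.48 ± 0.96 on values of 10.56, 10.33 and 10.92 in the line and 8.85, 5.49 and 4.04 in tissue. Rrm2 was alike on the line arrays and uneven on the tissue arrays, and its SE is wide. Orc1, Pola2 and Rpa3 were the 3 replication genes that did not pass.

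Promoters of 5 of these genes are shown for the elements that cell cycle factors bind; the genes were picked for their matches. The CHR element, TTTGAA, and the CCAAT box of mitotic genes are in capitals for Cdk1 (chr10:69352913-69353012, minus strand), the mitotic kinase, Top2a (chr11:99024190-99024309, minus strand) and Ccnb2, its cyclin partner (chr9:70421555-70421664, minus strand), where CCAAT alone was found in the window shown. The E2F element, TTTGGCGC or TTTCGCGC, is in capitals for the helicase genes Mcm5 (chr8:75109339-75109508, plus strand) and Mcm6 (chr1:128359706-128359835, minus strand), where matches on opposite strands overlap. CCAAT was found in 28 of 35 mitosis promoters with a window (80%) and 17 of 29 replication promoters (58.6%), against 37.5% of all promoters. CHR was found in 10 of 35 (28.6%) and 6 of 29 (20.7%), against 18.3%. The E2F element was found in 1 of 35 (2.86%) and 5 of 29 (17.2%), against 0.759%.
Cdk1: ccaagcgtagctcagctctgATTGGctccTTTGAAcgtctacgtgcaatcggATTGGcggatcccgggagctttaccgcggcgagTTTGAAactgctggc
Top2a: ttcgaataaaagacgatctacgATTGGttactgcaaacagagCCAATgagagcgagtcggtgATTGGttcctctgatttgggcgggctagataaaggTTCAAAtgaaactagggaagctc
Ccnb2: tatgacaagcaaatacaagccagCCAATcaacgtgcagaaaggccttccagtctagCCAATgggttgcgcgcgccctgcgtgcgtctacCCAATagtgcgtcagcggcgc
Mcm5: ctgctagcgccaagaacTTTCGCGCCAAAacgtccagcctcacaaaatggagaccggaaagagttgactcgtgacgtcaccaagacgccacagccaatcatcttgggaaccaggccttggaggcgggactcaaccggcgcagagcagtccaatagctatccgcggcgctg
Mcm6: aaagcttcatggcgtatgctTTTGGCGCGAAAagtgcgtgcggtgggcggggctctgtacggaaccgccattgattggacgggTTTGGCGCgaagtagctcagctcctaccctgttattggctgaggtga
On the arrays, Cdk1 read 10.94, 10.58 and 9.99 in the line and 9.08, 6.47 and 6.01 in tissue, Ccnb2 9.70, 9.36 and 8.92 in the line and 8.47, 5.57 and 3.67 in tissue, Mcm5 10.49, 10.93 and 9.34 in the line and 7.90, 6.71 and 6.24 in tissue and Mcm6 11.55, 11.66 and 10.32 in the line and 9.32, 8.28 and 8.43 in tissue. The rises were 3.32 ± 0.65, 3.42 ± 0.94, 3.30 ± 0.61 and 2.50 ± 0.40, with tissue replicate 1 the highest tissue array for each gene. It was also the highest tissue array in 29 of the 37 replication genes.

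Regulators of the step into S phase rose on both sides of the balance. Of 25 tested, 16 rose and 2 fell. Of the accelerators, Myc, the growth regulator, read 10.22, 9.58 and 8.91 in the line and 6.59, 6.25 and 6.28 in tissue, the cyclin-dependent kinase gene Cdk6 9.67, 9.26 and 9.95 in the line and 7.47, 6.54 and 5.43 in tissue and cyclin E1, Ccne1, 8.41, 7.47 and 8.39 in the line and 6.24, 5.63 and 5.96 in tissue. All 3 rose without overlap, by 3.20 ± 0.30, 3.15 ± 0.42 and 2.14 ± 0.27, and Ccnd1 and Ccnd2, cyclins D1 and D2, rose by 1.53 ± 0.41 and 1.18 ± 0.24; the rise of Ccnd2 was 1.00 without line replicate 3 and 0.97 without tissue replicate 3, and no longer passed. Of the brakes, Cdkn2a, which encodes p16 and p19ARF, read 7.69, 7.96 and 6.31 in the line and 3.15, 3.61 and 3.47 in tissue, Cdkn2b (p15) 9.90, 8.84 and 9.25 in the line and 4.65, 7.04 and 5.11 in tissue and Cdkn1a (p21) 11.61, 11.17 and 11.14 in the line and 8.78, 8.56 and 8.22 in tissue. These inhibitors rose by 3.91 ± 0.39, 3.73 ± 0.53 and 2.79 ± 0.20. Cdkn1c, the imprinted p57, went the other way, from 9.39, 8.08 and 9.41 in tissue to 4.84, 5.39 and 4.62 in the line, a fall of 4.01 ± 0.35. Rbl1 (p107), a relative of the retinoblastoma protein, rose by 2.22 ± 0.54. Cdkn1b (p27), at 8.26, 8.64 and 8.52 in the line and 9.11, 8.80 and 8.87 in tissue, did not pass. The E2f genes E2f1, E2f3, E2f7 and E2f8 rose by 2.32, 1.97, 2.77 and 2.35, and E2f2, at 5.68, 5.38 and 5.49 in the line and 5.30, 5.41 and 5.11 in tissue, did not pass.

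Of 25 p53 target genes 15 rose and 2 fell, with a median of 1.33. Mdm2, the ligase that degrades p53, read 11.28, 11.56 and 11.87 in the line and 7.96, 7.39 and 7.70 in tissue and rose by 3.88 ± 0.24. Eda2r, a receptor of the tumour necrosis factor family, read 8.93, 8.81 and 7.78 in the line and 4.94, 4.58 and 4.85 in tissue, a rise of 3.72 ± 0.36, and Gtse1, a p53-binding mitotic protein, rose by 2.83 ± 0.21. The groups of these genes did not overlap. Sesn1, a stress-induced sestrin, fell by 2.94 on values of 6.77, 6.73 and 6.77 in the line and 9.96, 8.94 and 10.18 in tissue, and Ccng1, at 11.78, 11.33 and 10.91 in the line and 10.19, 10.96 and 10.74 in tissue, did not pass, although 1 of its 2 other probe sets was called higher (1.27). Of 20 ribosome biogenesis genes 16 rose and none fell, with a median of 1.33; Nop58 read 9.66, 10.06 and 8.22 in the line and 6.53, 6.27 and 6.73 in tissue and Nolc1 9.72, 9.69 and 9.74 in the line and 7.56, 7.14 and 7.22 in tissue. Of 21 chromatin and telomere genes 9 rose, among them the maintenance methyltransferase Dnmt1 at 2.34 ± 0.28, and none fell.

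Most interferon-stimulated genes rose, in a culture given no interferon-gamma. Of 41 tested, 38 rose, 1 fell and 2 did not pass, with a median of 2.42. Usp18, the protease that removes ISG15 and damps the receptor, read 10.90, 11.64 and 10.61 in the line and 4.12, 7.01 and 4.16 in tissue, and Oas3, an enzyme that senses double-stranded RNA, 8.95, 8.996 and 8.25 in the line and 3.16, 3.81 and 3.55 in tissue. Tissue replicate 2 stood above its partners for Usp18 and still below every line array. The rises were 5.95 ± 0.67 and 5.22 ± 0.24 (adjusted p 4.88e-05 and 5.09e-08). Trim30a and Rtp4, other members of the response, read 10.94, 11.41 and 10.18 in the line and 5.49, 7.04 and 6.997 in tissue and 11.41, 11.56 and 10.65 in the line and 6.53, 8.84 and 6.53 in tissue and rose by 4.34 ± 0.44 and 3.91 ± 0.58. Ly6e, a surface protein that restricts virus entry, read 12.96, 13.10 and 12.84 in the line and 7.76, 10.22 and 8.36 in tissue and Iigp1, an immunity GTPase, 9.90, 10.33 and 8.21 in the line and 5.01, 7.46 and 6.57 in tissue; both rose, by 4.19 ± 0.50 and 3.13 ± 0.64, with no overlap.

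The exceptions in the list are as plain. Ifitm1, an antiviral membrane protein, read 4.54, 4.91 and 5.55 in the line and 9.86, 9.30 and 10.40 in tissue and fell by 4.85 ± 0.36, while its relative Ifitm3 read 12.74, 12.85 and 12.33 in the line and 11.23, 11.83 and 11.53 in tissue and rose by 1.11 ± 0.21, or by 0.96, under 2-fold, without tissue replicate 1. Gbp2, a guanylate binding protein, and Ifi27l2a read 9.57, 9.90 and 9.34 in the line and 8.95, 10.13 and 9.44 in tissue and 11.90, 12.05 and 10.98 in the line and 10.39, 12.35 and 11.82 in tissue, with overlapping arrays. Tissue was again uneven: replicate 2 was the highest tissue array in 36 of the 41 genes, and line replicate 3 the lowest line array in 36. Means over the list were 9.90, 10.13 and 9.04 in the line and 6.61, 7.81 and 7.12 in tissue. Without tissue replicate 2, 38 rose with a median of 2.74, without tissue replicate 1, 35 rose, and without line replicate 3, 38.

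The interferon-stimulated response element (ISRE), searched as GAAA, any 2 bases and GAAA on both strands, was found in 11 of 28 promoters of the list with a window (39.3%), against 3.46% of all promoters. The promoters shown, picked for their matches, are those of Oas3 (chr5:120777660-120777769, minus strand), Ifit1 (chr19:34640759-34640888, plus strand), Ifit3 (chr19:34583359-34583528, plus strand) and Rsad2 (chr12:26456453-26456592, minus strand). Capitals mark the element, which occurs in 2 places in Ifit1 and in Ifit3.
Oas3: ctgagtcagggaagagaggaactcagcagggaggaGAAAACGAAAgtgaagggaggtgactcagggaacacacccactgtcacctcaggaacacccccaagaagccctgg
Ifit1: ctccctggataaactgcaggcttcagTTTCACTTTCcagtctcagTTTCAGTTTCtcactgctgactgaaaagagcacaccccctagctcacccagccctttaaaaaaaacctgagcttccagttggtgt
Ifit3: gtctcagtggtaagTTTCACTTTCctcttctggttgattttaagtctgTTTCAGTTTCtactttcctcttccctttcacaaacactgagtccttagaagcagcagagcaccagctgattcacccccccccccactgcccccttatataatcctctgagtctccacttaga
Rsad2: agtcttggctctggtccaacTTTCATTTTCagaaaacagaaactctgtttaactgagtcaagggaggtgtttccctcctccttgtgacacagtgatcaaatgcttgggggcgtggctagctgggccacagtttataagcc
Ifit1 and Ifit3, which bind foreign RNA or its sensors, read 10.27, 10.42 and 9.11 in the line and 4.996, 7.10 and 5.73 in tissue and 11.45, 12.09 and 9.85 in the line and 6.24, 8.21 and 7.59 in tissue, and Rsad2, the antiviral enzyme viperin, 9.80, 10.32 and 9.01 in the line and 5.20, 6.12 and 5.85 in tissue. They rose by 3.99 ± 0.60, 3.79 ± 0.66 and 3.99 ± 0.33.

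Some of the upstream components of the pathway rose. Of 25 interferon signalling and sensing genes 9 rose and 2 fell. Irf7, the regulator of type I interferon genes, read 9.74, 10.14 and 9.06 in the line and 5.74, 6.65 and 5.96 in tissue, and Stat2, of the type I signalling complex, 8.43, 7.99 and 7.70 in the line and 5.42, 5.82 and 4.76 in tissue. Both rose on all arrays, by 3.53 ± 0.40 and 2.71 ± 0.32, and the cytosolic DNA sensor adaptor Sting1 rose by 2.70 ± 0.31. Irf8, a myeloid factor, fell by 2.64 on values of 3.55, 3.73 and 3.63 in the line and 6.17, 6.46 and 6.19 in tissue.

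Antigen presentation split by class. Of 19 genes 9 rose and 4 fell. The class I genes H2-K1 and H2-D1 read 12.60, 13.07 and 12.29 in the line and 9.59, 11.11 and 10.19 in tissue and 12.38, 12.82 and 12.22 in the line and 10.12, 11.57 and 10.79 in tissue and rose by 2.35 ± 0.37 and 1.64 ± 0.33; H2-K1 is also the gene whose promoter drives the transgene. Nlrc5, the activator of class I genes, read 8.18, 8.61 and 7.46 in the line and 3.04, 3.91 and 3.42 in tissue and rose by 4.62 ± 0.40, and the peptide transporter Tap1 rose by 3.23 ± 0.33. The class II genes H2-Ab1, H2-Eb1 and H2-Aa, which macrophages and dendritic cells use, fell by 3.97, 3.71 and 3.52. H2-Ab1 read 4.30, 4.85 and 4.08 in the line and 7.90, 9.55 and 7.70 in tissue, low on every line array and highest on tissue replicate 2, which was the highest tissue array in all 19 genes. B2m, the light chain of class I, read 13.52, 13.60 and 13.00 in the line and 12.39, 12.83 and 12.35 in tissue and changed by 0.85 ± 0.21, under 2-fold; without line replicate 3 it rose by 1.04 (adjusted p = 0.00172).

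Secreted signals of inflammation rose in number. Of 20 chemokine genes 10 rose and 6 fell; 3 fell without tissue replicate 2 and 2 on the control-centred scale. Cxcl10, which draws T cells, read 10.61, 10.90 and 11.43 in the line and 4.37, 5.24 and 4.56 in tissue, Ccl2, which draws monocytes, 11.56, 10.17 and 11.74 in the line and 5.74, 7.18 and 5.20 in tissue and Ccl5 9.03, 8.68 and 9.63 in the line and 4.33, 4.80 and 4.64 in tissue. No line array overlapped tissue for these, and they rose by 6.26 ± 0.29, 5.11 ± 0.50 and 4.52 ± 0.32. Ccl11, the eosinophil chemokine eotaxin, fell from 7.21, 9.31 and 9.51 to 3.80, 4.06 and 4.02. Cxcl5, a neutrophil chemokine, rose by 3.52 ± 1.19 (adjusted p = 0.0311) on values of 3.94, 4.74 and 10.01 in the line and 2.76, 2.75 and 2.62 in tissue, most of it from line replicate 3; without that array it rose by 1.63. With any 1 tissue array left out its adjusted p exceeded the threshold. Of 21 cytokine and secreted factor genes 10 rose and 3 fell, or 11 and none on the control-centred scale. Ptgs2, the inducible prostaglandin synthase COX-2, read 11.29, 10.49 and 11.02 in the line and 6.73, 4.98 and 6.57 in tissue and rose by 4.84 ± 0.42. Il6, interleukin 6, read 5.48, 7.75 and 9.91 in the line and 2.98, 3.43 and 3.40 in tissue, above tissue on each line array but to unequal levels, a rise of 4.44 ± 0.91. Lif, leukemia inhibitory factor, rose by 3.65 ± 0.37. Of 9 complement genes 5 fell and none rose, among them Cfb, factor B, by 3.33.

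Genes of the amino acid response, which ATF4 induces when charged transfer RNA runs short, rose in 16 of 20, with 1 fallen and a median of 1.91. Trib3, a pseudokinase, read 9.82, 11.13 and 8.39 in the line and 4.75, 5.42 and 5.10 in tissue, and Chac1, which degrades glutathione, 10.25, 11.12 and 9.25 in the line and 5.19, 6.05 and 5.48 in tissue. Line replicate 2 was the highest and replicate 3 the lowest line array in both, all clear of tissue, and they rose by 4.69 ± 0.78 and 4.63 ± 0.69. Psat1 and Psph, of serine synthesis, rose by 3.39 ± 0.26 and 2.80 ± 0.35, and Slc7a5, a leucine transporter, by 3.12 ± 0.38. Mthfd2 and Mthfd1l, of mitochondrial folate metabolism, rose by 3.03 ± 0.33 and 2.89 ± 0.27. The TGATGNAA form of the amino acid response element was found in 6 of 17 promoters of the list with a window (35.3%), against 3.91% of all. It is in capitals below for Chac1 (chr2:119351032-119351241, plus strand) and for Aars (chr8:111033712-111033841, plus strand), the alanine transfer RNA ligase gene, which read 10.99, 11.39 and 10.48 in the line and 9.13, 8.66 and 8.87 in tissue and rose by 2.07 ± 0.32. The windows were picked for their matches.
Chac1: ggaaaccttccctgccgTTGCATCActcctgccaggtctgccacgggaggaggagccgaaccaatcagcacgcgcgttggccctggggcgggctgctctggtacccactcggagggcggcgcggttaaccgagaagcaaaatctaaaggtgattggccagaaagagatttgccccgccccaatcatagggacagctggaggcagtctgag
Aars: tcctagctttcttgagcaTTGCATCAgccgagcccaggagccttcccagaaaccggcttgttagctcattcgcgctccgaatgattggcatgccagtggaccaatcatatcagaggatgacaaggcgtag

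Metabolic and stress genes changed in part. Of 20 cholesterol synthesis genes 10 rose and none fell, with Sc5d at 10.46, 9.74 and 9.97 in the line and 7.90, 8.12 and 7.55 in tissue and Msmo1 at 11.30, 10.39 and 10.84 in the line and 8.38, 9.33 and 8.64 in tissue, late enzymes of the pathway. Both lay clear of tissue, with rises of 2.20 ± 0.23 and 2.06 ± 0.30. Scd2, a fatty acid desaturase, rose by 2.31 ± 0.26. Of 23 glycolysis and hypoxia genes 6 rose and 2 fell, with Hk2, hexokinase 2, at 8.64, 8.23 and 8.90 in the line and 5.53, 6.19 and 5.49 in tissue and a rise of 2.85 ± 0.25. Of 34 respiratory chain genes 12 fell and none rose, with a median of -0.75; on the control-centred scale 2 of them fell and the median was -0.15. Uqcrh, a subunit of complex III, read 9.85, 9.22 and 9.91 in the line and 12.35, 12.16 and 12.31 in tissue and fell by 2.61. Of 21 heat shock genes 5 rose and 7 fell in the line, which was cultured at 39.5 °C. The part of temperature was not tested. Over all tested genes 12.8% rose and 18.9% fell. Without line replicate 3, 7 heat shock genes rose and 6 fell, and 5 glycolysis and hypoxia genes rose and 4 fell. The small heat shock proteins of muscle Hspb6, Hspb7 and Hspb8 fell by 3.26, 3.65 and 2.72, Hsp90aa1, the inducible HSP90, rose by 1.18 ± 0.20 and Hspa8, its constitutive HSP70 partner, read 12.80, 12.36 and 12.09 in the line and 12.02, 12.18 and 12.35 in tissue and did not pass, although 1 of its 3 other probe sets was called higher (2.21). In the endoplasmic reticulum Hspa5, the chaperone BiP, rose by 1.39 ± 0.26. With the mean of all probe sets of a gene the changes of Hsp90aa1 and Hspa5 were 0.69 and 0.92, under 2-fold. Of antioxidant genes, 21 tested, 4 rose and 4 fell, where 12.8% and 18.9% of all tested genes did. Without line replicate 3, 2 rose and 6 fell. On the control-centred scale 4 rose and 2 fell, where 1821 and 1151 of all 13285 genes did. Gpx3, secreted glutathione peroxidase, fell from 10.49, 11.10 and 11.37 to 4.50, 4.31 and 4.27, and Hmox1, heme oxygenase 1, rose by 2.63 ± 0.45.

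Genes that mark position along the gut and shape its mesenchyme were lower in part. Of 27 Hox and positional genes 11 fell and 4 rose, where 18.9% and 12.8% of all tested genes did. Barx1, the homeobox factor that specifies stomach mesenchyme, read 4.25, 4.17 and 4.16 in the line and 10.71, 10.08 and 10.63 in tissue. It was flat and low on the line arrays, high on all tissue arrays, and fell by 6.28 ± 0.20 (adjusted p = 4.28e-09). Isl1, which patterns the pylorus, read 4.32, 4.18 and 4.12 in the line and 8.01, 8.50 and 9.74 in tissue and Hoxa5, which stomach patterning needs, 5.08, 5.88 and 6.18 in the line and 9.22, 8.89 and 9.73 in tissue, with falls of 4.54 and 3.57. Hoxb5 fell by 3.06, whereas Hoxb2 of the same cluster read 7.22, 7.51 and 7.64 in the line and 7.99, 7.98 and 8.09 in tissue, a change of under 2-fold. The list median was -0.56, and 0.03 on the control-centred scale.

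Some pathway genes of mesenchymal signalling fell too, where 18.9% of all tested genes fell and 12.8% rose. Of 22 Wnt genes 7 fell and none rose, including the antagonists Sfrp1 (4.25, 4.69 and 4.56 in the line and 9.26, 8.93 and 9.17 in tissue) and Dkk3 (4.49, 3.81 and 5.001 in the line and 9.51, 9.63 and 9.60 in tissue) and the agonist Rspo3. The arrays of Sfrp1 and Dkk3 did not overlap, with falls of 4.62 and 5.15, and Rspo3 fell by 3.34. Of 13 hedgehog genes 7 fell and none rose; the target Gli1 read 3.71, 3.72 and 3.47 in the line and 6.25, 5.05 and 5.85 in tissue and the antagonist Hhip 3.49, 3.78 and 3.72 in the line and 7.28, 5.39 and 6.08 in tissue. Of 29 BMP and TGF-beta genes 12 fell and 3 rose. Id2, an immediate BMP target, read 4.45, 4.55 and 4.85 in the line and 9.69, 9.85 and 9.85 in tissue and fell by 5.18. Without tissue replicate 1, 5 Wnt, 5 hedgehog and 11 BMP and TGF-beta genes fell. On the control-centred scale 5 Wnt, 2 hedgehog and 6 BMP and TGF-beta genes fell, and Gli1 was not among them. There 1151 of all 13285 genes fell.

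Several imprinted genes of fetal growth fell. Of 17 oncofetal and imprinted genes 9 fell and 2 rose, with a median of -2.11, or -1.07 without tissue replicate 1. Plagl1 (Zac1), a growth-restraining zinc finger, read 3.30, 2.87 and 2.96 in the line and 11.55, 10.25 and 10.62 in tissue, Mest 3.74, 3.92 and 4.20 in the line and 10.73, 8.59 and 8.63 in tissue, and Meg3, the maternally expressed non-coding RNA, 4.41, 4.70 and 4.91 in the line and 10.999, 9.34 and 8.45 in tissue. All line arrays were low, and tissue replicate 1 was the highest tissue array in each. They fell by 7.77, 5.36 and 4.93. Hmga2, an oncofetal chromatin protein, went against them: it read 11.49, 10.04 and 10.60 in the line and 4.08, 4.68 and 4.43 in tissue and rose by 6.31 ± 0.33 (adjusted p = 1.4e-07).

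The change was set against that between the C57BL/6J line and C57BL/6J stomach muscle, which share no array with the groups above but differ from them in strain, clone, medium supplement and temperature together. The difference of the changes passed in 2702 genes, 20.3% of those tested: 970 (7.30%) were higher in the tsA58 comparison and 1732 (13.0%) lower. It passed in 577 genes on the control-centred scale, where the spread of the control readings is added to every gene. With the first or the second C57BL/6J tissue array left out it passed in 1485 or 1505. Of the 1698 genes that rose in the tsA58 comparison, 771 (45.4%) rose in C57BL/6J too, or 33.1% of the 2326 genes risen there (17.5% of tested genes). Of the 2516 that fell, 1465 (58.2%) fell in C57BL/6J, or 66.5% of the 2204 fallen there (16.6%). Opposite calls were few, 46 risen in tsA58 and fallen in C57BL/6J, and 63 the reverse.

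Most interferon-stimulated, mitosis, replication and repair genes rose in tsA58, whereas the medians of these lists were below 0 in C57BL/6J. Nucleotide synthesis genes, most of which rose in tsA58 too, had a C57BL/6J median of 0.5. Of the 20 tested, 7 rose and 1 fell in C57BL/6J, and the difference was called higher in 9. The difference was called higher in 35 of 41 interferon-stimulated genes, 33 of 43 mitosis genes, 31 of 37 replication genes and 15 of 21 repair genes. Median changes in C57BL/6J were -0.74, -0.30, -0.23 and -0.14 for these lists, against 2.42, 3.15, 2.23 and 2.13 in tsA58. For interferon genes, without the first or the second C57BL/6J tissue array the count was 29 or 28, and on the control-centred scale 18. For mitosis genes it was 4 without either C57BL/6J tissue array, 16 without tsA58 tissue replicate 2 and 16 on the control-centred scale. For replication genes it was 20 or 22 without the first or the second C57BL/6J tissue array and 6 on the control-centred scale, and for repair genes it was 9 or 10 and 3. Over all tested genes 127 were called higher and 450 lower on the control-centred scale, and 984 higher without tsA58 tissue replicate 2. The mitosis count was 43 without tsA58 tissue replicate 1 and 36 without tsA58 line replicate 3. Fits without a C57BL/6J tissue array leave a single array in that group. Ly6e had means of 3.20 ± 0.28 (SD, n = 3) in the C57BL/6J line and 9.12 ± 0.40 (SD, n = 2) in its tissue, a change of -5.92 where the tsA58 change was 4.19. Iigp1 changed by -4.28 in C57BL/6J and 3.13 in tsA58, and Usp18 by -0.74 and 5.95. The differences were 10.11, 7.41 and 6.70 (adjusted p 5.51e-05, 0.000955 and 0.00188). Of 32 contractile genes 16 had a difference called lower (8 on the control-centred scale) and none higher: Myl9, a myosin light chain, fell by 10.40 in tsA58, from 13.66, 13.64 and 13.82 to 3.31, 3.25 and 3.34, and by 3.62 in C57BL/6J. Hox and positional genes differed in both directions, 4 higher and 10 lower (0 and 6 on the control-centred scale); Hoxa5 changed by 0.84 in C57BL/6J. Glycolysis and hypoxia genes differed in 9 of 23, all lower (3 on the control-centred scale), and 15 of the 23 rose in C57BL/6J. Of the metalloproteinases, Mmp13 changed by 9.19 in C57BL/6J, a difference of -0.76 (adjusted p = 0.136), and Mmp3 and Mmp10 changed by 4.20 and 4.57 there.

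**Figure D5:**
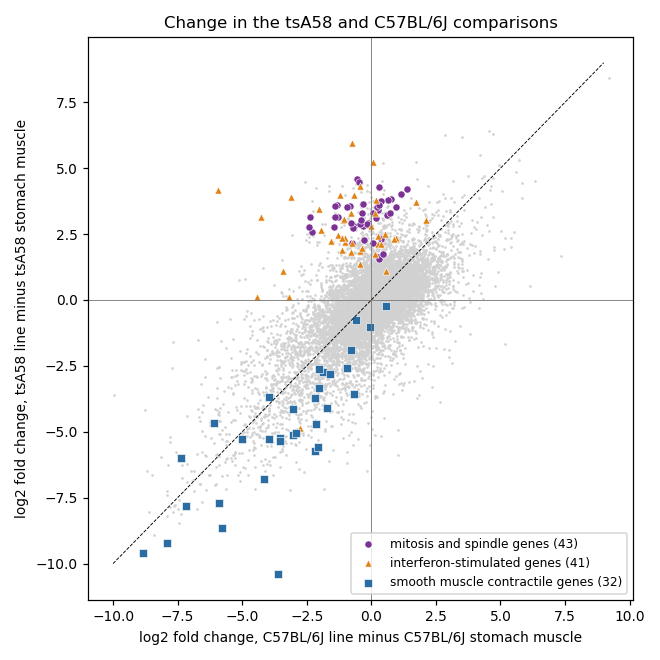
Change of each of the 13285 tested genes in tsA58 (y axis, log2 fold change of line over tissue) against the change in C57BL/6J (x axis), with the line of equality dashed and 3 gene lists marked. All mitosis genes and most interferon genes lie above the line of equality, and most contractile genes lie below it and below 0 on both axes.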

How the data were processed

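Per the labels, RNA of each sample was amplified in 2 rounds and hybridized to an Affymetrix mouse array, and the authors' deposited values are log2 RMA expression values, per the submitters' processing notes, with no version given. Of 45101 probe sets, 34945 carry a single gene symbol in the array's annotation, of which 34741 match a RefSeq gene. From these log2 values group means were fitted to the 11 arrays with limma 3.58.1 (R 4.3.3), with Benjamini-Hochberg adjustment over 13285 genes. RMA sets the arrays to a common distribution, so a shift shared by most genes is not visible. Arrays give no depth; 3 arrays a group limit the precision. On simulated data at this size, 174 of 200 changed genes were called the right way and 5 of the unchanged were called. The simulation drew noise independently for each gene, changed far fewer genes than were called here and held no array that stands apart. It therefore does not give the error rate of these calls. Genes named are the furthest changed, up to 5 called members of each list, the ICC and G1 genes, the highest of each group, the largest differences and those of line replicate 3; others were chosen after their values were seen. Members and lists were chosen with earlier results of these data known. Of 188 other probe sets of named genes, 154 represent called genes and 153 of those had a change of the same sign, all but 1 of Hspa5. Promoters are from RefSeq (GRCm38.p6).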

Additional observations from a re-analysis of the deposited data

Results flagged for a closer look

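The differences listed here are those whose line-minus-tissue change in tsA58 departed from the C57BL/6J change by limma's interaction contrast (adjusted p under 0.05 and at least 2-fold), among the largest in each direction. On the higher side the difference was 10.11 for Ly6e, 7.41 for Iigp1, 7.07 for Rrm2, 7.04 for Rtp4, 6.70 for Usp18, 6.39 for Pclaf, 6.03 for Dscc1, 5.97 for Fignl1 and 5.76 for Ddx60. Ly6e, Iigp1, Rtp4, Usp18 and Ddx60 belong to the interferon response, and Rrm2, Pclaf, Dscc1 and Fignl1 serve DNA replication or repair. Bpifb1, which is not placed in either group, was also among the largest on this side, as were Itgb2 and Ctsf on the lower side. Their values are not given here. In Ly6e, Iigp1, Rtp4, Usp18, Rrm2, Pclaf and Dscc1 the changes had opposite signs. They were 4.19 in tsA58 and -5.92 in C57BL/6J for Ly6e, 3.13 and -4.28 for Iigp1, and 3.91 and -3.13 for Rtp4.

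On the lower side it was -6.91 for Mgp, an inhibitor of calcification, -6.78 for Myl9, -6.53 for Tmem45a, -6.35 for Gpm6a, a membrane glycoprotein of neurons that is counted above among the mesothelium genes, -5.95 for Meg3, -5.51 for Dkk3, -5.49 for Hmgcll1 and -5.47 for Chn1, a Rac regulator of neurons. Mgp read 6.63, 5.91 and 8.07 in the line and 12.99, 12.81 and 12.39 in tissue, and Gpm6a 3.28, 2.53 and 4.88 in the line and 9.57, 10.32 and 10.30 in tissue. The C57BL/6J line held Mgp at 12.47 ± 0.37 (SD, n = 3) beside 11.42 ± 0.04 (SD, n = 2) in its tissue, and Gpm6a at 9.20 ± 0.46 beside 9.35 ± 0.31. Mgp, Tmem45a, Meg3, Dkk3, Hmgcll1 and Chn1 fell in tsA58, whereas in C57BL/6J their line mean lay above the tissue mean. Strain, clone, medium and temperature differ together between the comparisons, and their parts cannot be told apart. The call for Pclaf (adjusted p = 0.0113 by limma) was lost at an adjusted p under 0.01 and when tested against 2-fold. Those of the other 16 genes with a difference printed here held in every alternative run.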

How the results depend on the processing

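With arrays centred on the hybridization controls 1151 genes fell in the tsA58 comparison, and the difference from C57BL/6J passed in 577. Tested against 2-fold with limma's treat, 1808 genes were called (518 risen, 1290 fallen) and 323 for the difference. An adjusted p under 0.01 left 1198 for the difference, and array quality weights gave 4365 for it and 4655 for the tsA58 comparison. Leaving out 1 array in turn gave 3947 to 4551 calls for the tsA58 comparison and 1485 to 3700 for the difference. The filter on low values, quantile and cyclic loess normalization, the 6 tsA58 arrays alone, the actin ratio as a covariate, trended or robust variance and other choices of probe set gave between 3213 and 4288 calls. The replicate numbers do not pair the arrays, with correlations of deviations of 0.083, -0.143 and -0.072 for the same-numbered arrays, and a replicate block gave 4202 calls. Of 211 changes and differences of named genes checked, 170 kept their direction and their side of the threshold under all 25 alternatives and 193 with each array left out; the cause of the others was not tested. Some named genes that did not pass changed sign. With arrays centred on the hybridization controls the change was 0.14 for Cdkn1b, 0.57 for Gja1, 0.03 for Hoxb2, 0.51 for Insr, 0.50 for Kcnn3, 0.26 for Timp2 and 0.37 for Vcl. With the mean of all probe sets it was -0.42 for Atp2a2, 0.17 for Gja1 and 0.17 for Insr, with quantile normalization 0.06 for Gja1, and with array weights -0.13 for Serpinb2. With 1 array left out in turn the change ranged from -0.18 to 0.41 for Gbp2, -0.19 to 0.13 for Gja1, -0.44 to 0.54 for Ifi27l2a, -0.02 to 0.64 for Igf1r, -0.46 to 0.36 for Insr, -0.26 to 3.20 for Serpinb2, -0.81 to 0.01 for Timp2 and -0.43 to 0.09 for Vcl.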
